A study of Mus musculus with 2 samples.

Results

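The genes described here carry glucose into the cell, break it down to pyruvate, and exchange pyruvate with lactate. They are 33 of 55536 annotated genes, taken from a list by symbol. Level was no criterion of the list, but the list was chosen with earlier results of these data known. The list holds 5 glucose transporters, 3 hexokinases, 3 phosphofructokinases, 4 bifunctional PFKFB enzymes, 2 aldolases, 2 phosphoglycerate mutases, 3 enolases, 2 pyruvate kinases, 3 lactate dehydrogenases and 2 monocarboxylate transporters. The other 4 steps have 1 gene each: Gpi1, Tpi1, Gapdh and Pgk1. All 33 were found in the gene tables.

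Glycolysis turns glucose into pyruvate in the cytosol and yields ATP without oxygen. Most of its enzymes come as paralogs, related genes from duplication, of which one is typical of muscle or heart and another of other tissues or of growing cells. The heart around birth is known to lean on glucose and lactate and to shift toward fatty acids as it matures.

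The RNA was total RNA from the hearts of male B6CASTF1/J mice aged 10 days. These mice are the first-generation hybrid of the B6 laboratory strain and the wild-derived CAST strain, and no other allele, treatment or time was in the series. There were 2 libraries of 1 group, called replicate 1 and replicate 2 after the labels, each made from 300 ng of RNA, reduced in ribosomal RNA, with ERCC spike-in controls. The males are numbered separately but share a donor record, so the spread given below is that between these samples, and no test between groups was possible.

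Expected counts added up to 38851514 for replicate 1 and 37907585 for replicate 2, of which 22.59% and 24.23% came from mitochondrially encoded genes. All 7 cardiomyocyte markers were detected, with a summed level of 25232 TPM in replicate 1 and 24070 TPM in replicate 2. TPM is a level divided by transcript length and scaled to a constant sum per library. The authors deposited levels by alignment to transcripts, the first quantification, and levels taken directly from reads, called the other quantification; values are from the first unless stated. The libraries stood apart in markers of other tissue. The summed level of 6 atrial markers was 1516 TPM in replicate 1 and 276 TPM in replicate 2, and that of 7 adipocyte markers was 424.8 and 31.35 TPM. The 5 fibroblast markers summed to 1666 and 1048 TPM in the same order, the 8 myeloid markers to 58.05 and 38.02 TPM, the 5 smooth muscle and pericyte markers to 498.4 and 362.7 TPM, and the 5 endothelial markers to 469.6 and 377.3 TPM. The 6 Schwann and neuronal markers summed to 10.57 and 2.92 TPM and the 6 red cell markers to 12071 and 12950 TPM. Skeletal muscle markers summed to 2.48 and 1.89 TPM, with 1 of 7 at 1 TPM or more in both libraries and Myh4 at 0 counts in both. In bulk RNA, fewer cells of a type and less RNA per cell cannot be told apart.

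The M1 and M2 forms of pyruvate kinase Pkm are told apart by a short stretch. Pkm makes these forms by taking 1 of a pair of adjacent exons. M1 is the form of adult muscle, heart and brain, and M2 that of embryonic and dividing cells. The exons lie on the plus strand of chromosome 9, at chr9:59675029-59675195 for M1 and chr9:59675568-59675734 for M2 (mm10), and each is 167 bases long. They differ at 64 positions and are 61.7% identical; capitals mark the bases that differ.
Pkm M1 exon: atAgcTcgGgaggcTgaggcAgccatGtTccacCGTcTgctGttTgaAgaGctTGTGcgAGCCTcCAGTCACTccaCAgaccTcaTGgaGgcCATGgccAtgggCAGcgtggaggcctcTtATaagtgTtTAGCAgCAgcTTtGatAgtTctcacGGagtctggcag
Pkm M2 exon: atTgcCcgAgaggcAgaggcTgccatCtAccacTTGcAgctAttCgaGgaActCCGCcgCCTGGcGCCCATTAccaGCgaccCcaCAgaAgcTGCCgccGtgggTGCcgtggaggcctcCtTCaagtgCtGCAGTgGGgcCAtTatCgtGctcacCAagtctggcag

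The phosphoglycerate mutases Pgam2, the muscle form, and Pgam1, the form of brain and most other tissues, are shown by their first 90 coding bases, to let the distance between a muscle paralog and its partner be seen. The Pgam2 stretch lies at chr11:5803599-5803688 on the minus strand and the Pgam1 stretch at chr19:41912048-41912137 on the plus strand. Capitals mark the 28 bases that differ.
Pgam2 coding start: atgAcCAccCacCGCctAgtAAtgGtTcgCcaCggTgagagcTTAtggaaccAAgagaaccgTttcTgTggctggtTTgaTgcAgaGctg
Pgam1 coding start: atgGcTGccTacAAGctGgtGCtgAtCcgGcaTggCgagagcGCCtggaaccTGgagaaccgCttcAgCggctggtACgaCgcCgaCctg

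For the enolases Eno3, the muscle form, and Eno1, the widely expressed form, the first 85 coding bases are set side by side for the same reason. Both stretches lie on the plus strand, at chr11:70657874-70657958 for Eno3 and chr4:150239482-150239566 for Eno1. They differ at 26 bases, in capitals.
Eno3 coding start: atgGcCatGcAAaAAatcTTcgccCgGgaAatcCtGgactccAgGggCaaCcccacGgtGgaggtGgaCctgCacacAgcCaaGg
Eno1 coding start: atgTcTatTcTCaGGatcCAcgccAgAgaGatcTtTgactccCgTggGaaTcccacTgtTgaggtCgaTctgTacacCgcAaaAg

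The members were among the more abundant RNAs of these hearts. Of the 33, 27 reached 1 TPM in both libraries and 11 reached 100 TPM in both. The median of the mean TPM was 61.5 over those 27 members and 9.87 over all 12710 genes at 1 TPM or more in both libraries. Together the members held 0.675% of all TPM in replicate 1 and 0.569% in replicate 2. The highest was Gapdh at 1306 ± 170 TPM, followed by Aldoa at 1004 ± 123, Ldhb at 667.1 ± 29.7, Eno3 at 639.7 ± 39.6 and Pkm at 485.3 ± 73.6 TPM (SD, n = 2 for each). In the order of levels, 19 of 32 neighbours had ranges over the libraries that overlapped, among them Ldhb with Eno3, Tpi1 with Ldha, and Pfkm with Pgk1. TPM of a typical gene was itself higher in replicate 1, by a median of 0.21 on the log2 scale over the 12710 genes, so differences between libraries are taken from scaled counts further on.

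**Figure D1:**
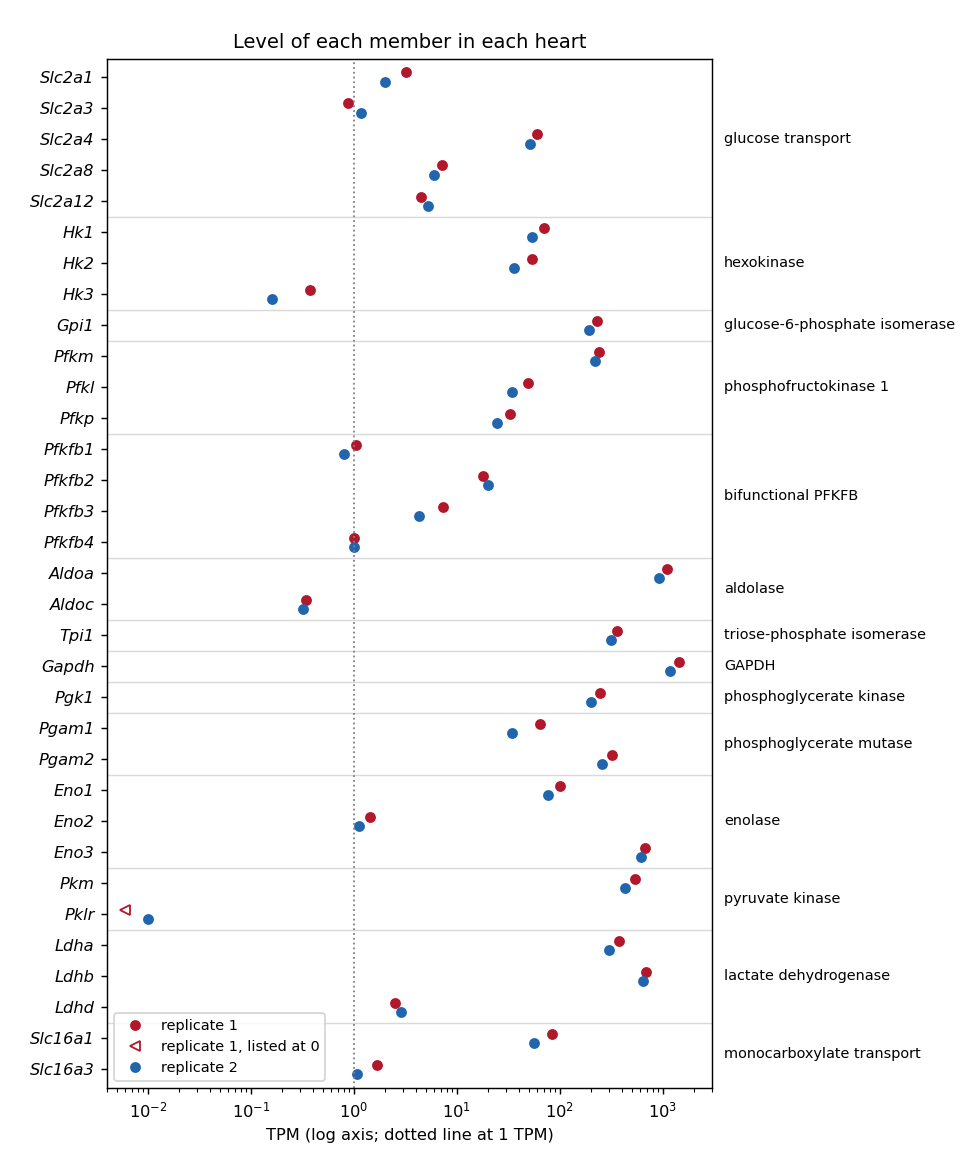
TPM of each of the 33 members in replicate 1 (red) and replicate 2 (blue), on a log axis and ordered by step, with an open triangle for a gene listed at 0. Within most steps 1 or 2 members lie well to the right of the others, and the points of the libraries lie close together beside the distance between paralogs.

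By step, the lowest sums stood at the entry of glucose, its phosphorylation, the exit of lactate and the bifunctional regulators. The glucose transporters summed to 70.66 ± 7.59 TPM, the hexokinases to 106.6 ± 24.5, the monocarboxylate transporters to 71.93 ± 20.1 and the PFKFB enzymes to 26.7 ± 0.601 TPM (SD, n = 2 for each). The other steps were all higher. Gpi1 averaged 211.5 ± 29.5 TPM, the phosphofructokinases 299.8 ± 29.5, and the aldolases 1004 ± 123 TPM. The lactate dehydrogenases summed to 1008 ± 84.6 TPM, above the pyruvate kinases at 485.3 ± 73.5 TPM (SD, n = 2 for each).

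Paralogs were compared in 19 pairs as the form known from muscle or heart over another gene listed under the same step. The measure was the log2 ratio of TPM with 0.1 added to each value. The muscle or heart form was over 2-fold higher in both libraries in 17 pairs, and no pair was over 2-fold lower in both. The exceptions were Hk2 over Hk1 and Ldhb over Ldha, which lay closer to equal levels. Some partners are themselves known from muscle or insulin-sensitive tissue (Pfkfb1, Slc16a3 and Slc2a12), and Ldhd acts on D-lactate. The count is thus not one of muscle over non-muscle forms, and pairs that share a gene are not separate observations.

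**Figure D2:**
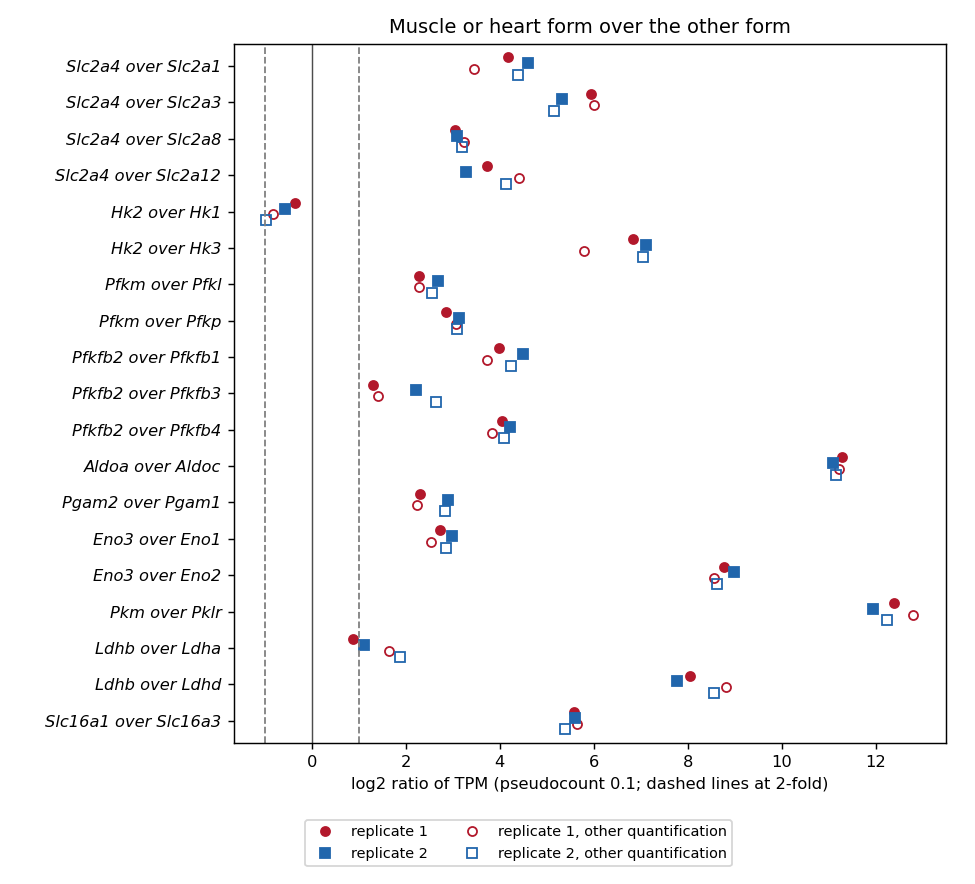
Log2 ratio of TPM, muscle or heart form over the other form, for 19 pairs in replicate 1 (red circles) and replicate 2 (blue squares), with filled symbols for the first and open symbols for the other deposited quantification. All pairs except Hk2 over Hk1 and Ldhb over Ldha lie right of the 2-fold line in all 4 tables, and Ldhb over Ldha lies right of it in 3.

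Among glucose transporters, Slc2a4 (GLUT4), which moves to the cell surface under insulin and contraction, held most of the RNA. Slc2a4 stood at 60.22 TPM in replicate 1 and 50.99 TPM in replicate 2, which was 79.2% and 78.1% of the 5 transporters. Slc2a1 (GLUT1), the basal transporter that is known to be high in fetal heart, stood at 3.22 and 2 TPM. Slc2a4 thus exceeded Slc2a1 18.7-fold in replicate 1 and 25.5-fold in replicate 2. In the other quantification the log2 ratio of the pair was 3.44 in replicate 1, against 4.18 in the first, and 4.39 in replicate 2, against 4.60.

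The second transporter was Slc2a8 (GLUT8), which sits mainly inside the cell, at 7.24 TPM in replicate 1 and 5.94 TPM in replicate 2. Slc2a12 (GLUT12), another transporter found in insulin-sensitive tissue, stood at 4.47 and 5.19 TPM. Slc2a3 (GLUT3), best known from neurons, was the lowest, at 0.88 and 1.18 TPM. The ranges of Slc2a8 and Slc2a12 over the libraries did not overlap, and both exceeded Slc2a1 in each library. In the other quantification Slc2a1 stood at 6.44 TPM in replicate 1, above Slc2a12 at 3.269 TPM, and at 3.129 TPM in replicate 2, below Slc2a12 at 3.743 TPM, so the order of these genes is not settled.

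Hexokinases trap glucose in the cell by phosphorylating it. Hk1, the widely expressed form, stood at 69.71 TPM in replicate 1 and 53.25 TPM in replicate 2. Hk2, the insulin-responsive form of muscle and fat, stood at 53.86 and 35.87 TPM, and its range overlapped that of Hk1 by a narrow margin. The log2 ratio of Hk2 over Hk1 was -0.37 in replicate 1 and -0.57 in replicate 2, and -0.83 and -0.97 in the other quantification. Hk2 was lower than Hk1 in all 4 tables. In the first quantification Hk2-202, a processed transcript of 594 bases, held 25.7% and 30.8% of the Hk2 TPM, from 207.4 and 175.4 counts. In the other it held 0 and 9.09%, so the closeness of Hk2 to Hk1 depends on the quantification. Hk3, known from blood cells of the myeloid line, stood at 0.37 and 0.16 TPM, from 22 and 15 counts.

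Phosphofructokinase 1 commits the sugar to glycolysis, and its enzyme is a tetramer that can mix subunits. The muscle subunit Pfkm stood at 238.4 TPM in replicate 1 and 219.8 TPM in replicate 2, which was 74.4% and 78.8% of the step. The liver subunit Pfkl stood at 49.52 and 34.29 TPM, and the platelet subunit Pfkp at 32.65 and 24.82 TPM. Pfkm was 4.82-fold above Pfkl in replicate 1 and 6.41-fold in replicate 2.

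The PFKFB enzymes make and remove fructose 2,6-bisphosphate, the activator of phosphofructokinase 1. Pfkfb2, the form known from heart, led this step at 17.84 TPM in replicate 1 and 20.21 TPM in replicate 2. Pfkfb3, the form of growing and inflamed cells and of fat, stood at 7.25 and 4.26 TPM. Its share of the step was 26.7% in replicate 1 and 16.2% in replicate 2. Pfkfb1, the liver and muscle form, stood at 1.04 and 0.8 TPM, and Pfkfb4, known from testis, at 0.99 and 1 TPM.

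Aldolase splits the phosphorylated sugar, and here it was nearly all Aldoa, the muscle and red cell form. Aldoa stood at 1090 TPM in replicate 1 and 916.8 TPM in replicate 2. Aldoc, the brain form, stood at 0.34 and 0.32 TPM, from 15 and 16 counts. A second identifier under the symbol Aldoa had 8 and 16 counts and was not used.

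The next steps have 1 member each. Tpi1, which interconverts the triose phosphates, stood at 363.2 TPM in replicate 1 and 315.5 TPM in replicate 2. Gapdh, which makes NADH from them, stood at 1426 and 1186 TPM. Pgk1, the first ATP-yielding enzyme, stood at 247.9 and 202.1 TPM, and Gpi1, which acts before phosphofructokinase, at 232.4 and 190.7 TPM. Pgk1 and Gpi1 overlapped, while Gapdh lay above every other member in TPM in both libraries. In expected counts, which are not divided by length, Gapdh had 25986 and 23105. That was below Aldoa at 45931 and 41076, Pkm at 34171 and 29159 and Eno3 at 26610 and 25224. Its rank in TPM thus depends on the short transcripts described further on.

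In the lower part of the pathway the muscle paralogs again led. Pgam2 stood at 319.7 TPM in replicate 1 and 256.8 TPM in replicate 2, and Pgam1 at 64.26 and 34.24 TPM. Pgam2 was thus 4.97-fold and 7.5-fold above Pgam1. Eno3 stood at 667.8 and 611.7 TPM, Eno1 at 101.5 and 77.45 TPM, and the neuronal form Eno2 at 1.42 and 1.11 TPM. Eno3 held 86.6% of the enolases in replicate 1 and 88.6% in replicate 2. Skeletal muscle markers summed to 2.48 and 1.89 TPM, as given above, and any part of skeletal muscle in the levels of Pgam2 and Eno3 was not tested.

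Pyruvate kinase makes pyruvate and ATP. Pkm stood at 537.3 TPM in replicate 1 and 433.3 TPM in replicate 2. Pklr, the liver and red cell gene, was listed at 0 TPM in replicate 1 and 0.01 TPM in replicate 2, from 0 and 1 counts, both under the floor of 3 counts, which equals 0.0777 and 0.0796 CPM. No fold is given for this pair.

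The Pkm exons shown above separate the M1 from the M2 form. Only 1 annotated transcript carries each exon, Pkm-202 for M1 and Pkm-201 for M2. M1 stood at 260.9 TPM in replicate 1 and 210.5 TPM in replicate 2, and M2 at 260.1 and 209.7 TPM. The M1 share was 50.1% in both libraries, and 46.5% and 46.2% in the other quantification. Both transcripts were therefore at nearly equal levels in all 4 tables. Pkm-202 is 2041 bases long and Pkm-201 2432, so they also differ outside these exons. The levels are those of whole transcripts, and reads over the exons themselves were not counted.

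Lactate dehydrogenase is a tetramer of A and B subunits. Ldhb, the heart subunit, stood at 688.1 TPM in replicate 1 and 646 TPM in replicate 2, and Ldha, the muscle subunit, at 376.8 and 298.9 TPM. The log2 ratio of Ldhb over Ldha was 0.87 in replicate 1 and 1.11 in replicate 2. In the other quantification it was 1.64 and 1.87, where Ldhb stood at 1411 and 1443 TPM and Ldha at 453.5 and 394 TPM. Ldhb led in all 4 tables, by an amount that depended on the quantification. Ldhd, which acts on D-lactate and is not a subunit of this tetramer, stood at 2.5 and 2.87 TPM.

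Monocarboxylate transporters carry lactate across the membrane. Slc16a1 (MCT1), which serves uptake in the heart, stood at 84.48 TPM in replicate 1 and 56.63 TPM in replicate 2. Slc16a3 (MCT4), the export form of glycolytic muscle, stood at 1.68 and 1.07 TPM. Slc16a1 exceeded it 50.3-fold in replicate 1 and 52.9-fold in replicate 2.

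**Figure D3:**
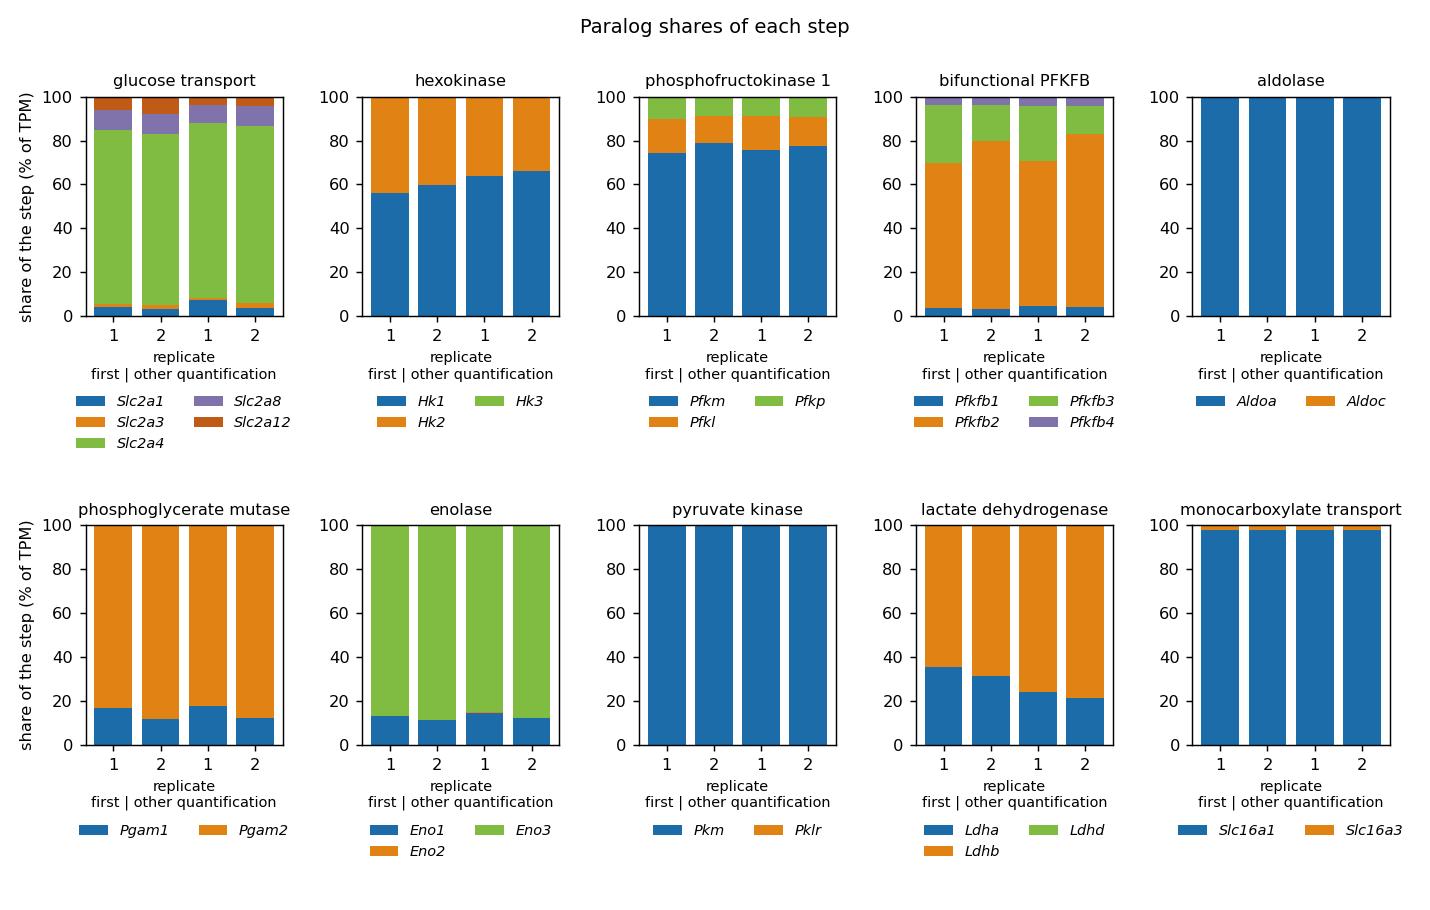
Share of each paralog in the summed TPM of its step (%), in replicate 1 and replicate 2 of the first and of the other quantification. Slc2a4, Pfkm, Pfkfb2, Pgam2, Eno3, Ldhb and Slc16a1 form the largest block of their steps in all 4 columns, Hk1 is the larger hexokinase block, and the Ldha block is smaller in the other quantification.

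Likeness of the proteins varied widely between the pairs. In translations of the longest annotated coding sequences, Eno1 and Eno3 were identical at 83.6% of alignment columns and Pgam1 and Pgam2 at 78.7%. A column with a gap counted as a difference, which lowers the value where the lengths differ. Hk1 and Hk2 were identical at 69.1%, and Ldha and Ldhb at 69.4%. Slc16a1 and Slc16a3 were identical at 42.1%, and Ldhb and Ldhd at 14.6%. Longest forms of Hk1, Ldha and Aldoa, of 945, 361 and 418 residues, are not their most abundant transcripts in the first quantification.

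Between the libraries, differences were measured as the log2 ratio of replicate 1 over replicate 2, from counts scaled with TMM factors and with 0.5 added, with an exact 95% Clopper-Pearson interval that covers counting error only. Of the 33 members, 29 had a mean count of at least 50. Of these, 3 were past 1.5-fold with an interval that left out equality, which is 10.3% of them, against a background of 6.27% of 13211 genes. All 3 were higher in replicate 1, where the background was 3.14%. None of the 29 was past 2-fold, against a background of 1.79%. With 3 genes behind it, the share is not read as setting the members apart.

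Pfkfb3 had 675 and 352 counts in replicates 1 and 2, a log2 ratio of 0.80 (0.61 to 0.99). Pgam1 had 3245 and 1827 counts, a log2 ratio of 0.69 (0.60 to 0.77). Slc16a3 had 85 and 50 counts, a log2 ratio of 0.62 (0.10 to 1.16). In the other quantification the ratio was 0.80 for Pfkfb3 and 0.70 for Pgam1, but 0.46 (-0.04 to 0.99) for Slc16a3, which was then no longer past 1.5-fold.

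Smaller differences in the same direction were common among the members. An interval wholly above equality was found for 17 of 29 members, or 58.6%, against a background of 20.6%. The median log2 ratio was 0.07 over the 29 members and -0.01 over the 13211 genes. Hk2 had a ratio of 0.45 (0.40 to 0.51), Pfkl 0.45 (0.38 to 0.51), Slc2a1 0.38 (0.10 to 0.66) and Slc16a1 0.35 (0.31 to 0.39). Deeply counted genes reached such an interval at much smaller ratios, for example Pkm at 0.09 (0.06 to 0.11) and Pgk1 at 0.07 (0.03 to 0.11). The background was not matched for depth, so the share of 58.6% is not read as setting the members apart. The same 17 members kept an interval above equality under all 5 scalings tried, which could not have come out otherwise. Of these scalings, TMM gave the lowest size of replicate 2 relative to replicate 1, 0.907. The others could therefore only raise the log2 ratio. In the other quantification the interval of Slc16a3 held equality, as given above.

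A smaller group stood lower in replicate 1. Intervals wholly below equality were found for 6 of 29 members, or 20.7%, against a background of 22.3%. Pfkfb2 had a ratio of -0.41 (-0.51 to -0.31), Ldhd -0.42 (-0.71 to -0.13) and Slc2a12 -0.38 (-0.59 to -0.18), and these 3 stayed below equality under all 5 scalings. Ldhb had -0.11, Pfkm -0.07 and Eno3 -0.06, and the sign of Pfkm and Eno3, and of Tpi1, changed with the scaling. The other 6 members had intervals that held equality, among them Slc2a4 at 0.02 (-0.04 to 0.09).

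**Figure D4:**
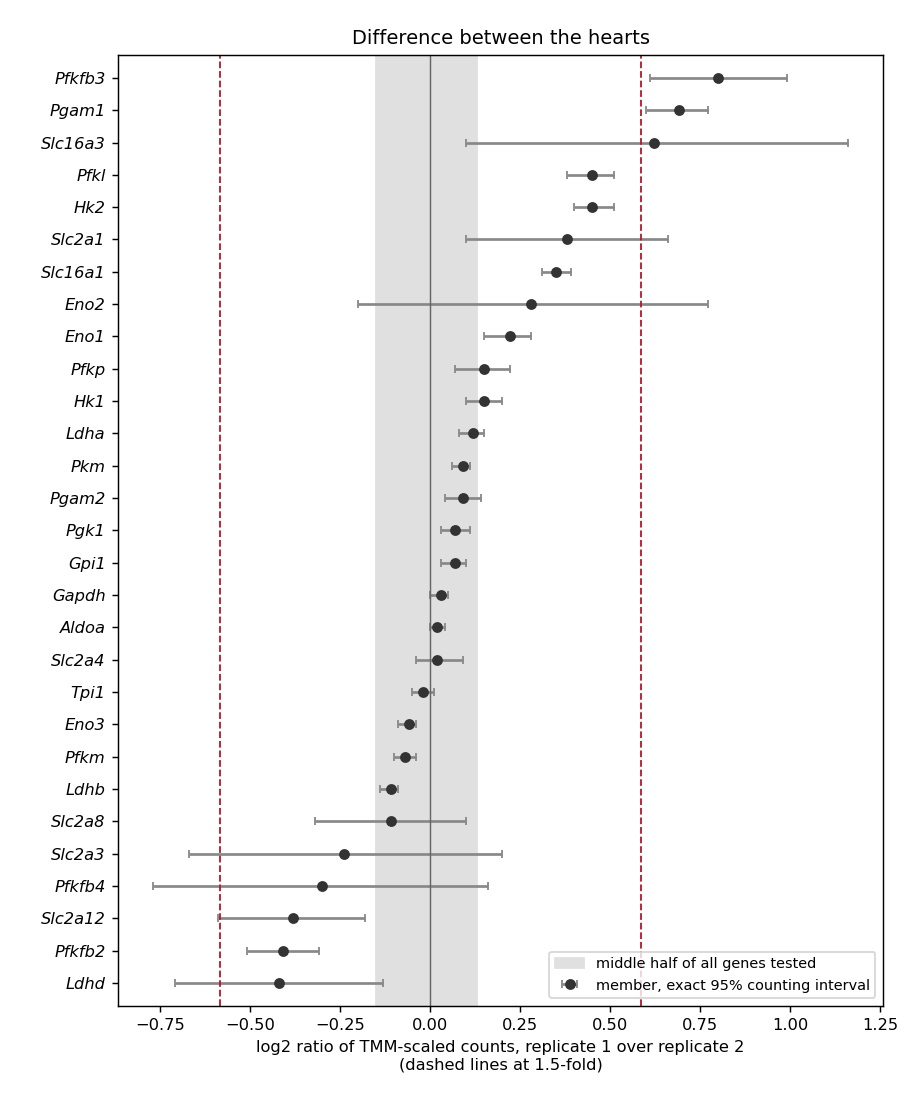
Log2 ratio of scaled counts, replicate 1 over replicate 2, for the 29 members whose mean count was 50 or more, with exact 95% counting intervals. The grey band runs from the lower to the upper quartile of all 13211 genes, -0.15 to 0.13, and dashed lines mark 1.5-fold. Pfkfb3, Pgam1 and Slc16a3 lie right of the upper line, and Ldhd, Pfkfb2 and Slc2a12 are lowest.

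The ratio of paralogs within a library needs no scaling, and its difference between libraries was taken from the counts. In 11 of 19 pairs the muscle or heart form stood lower against its partner in replicate 1, and in 8 it stood higher. Past 1.96 counting standard errors there were 7 lower and 3 higher pairs. The log2 difference was -1.20 ± 0.11 (counting SE) for Pfkfb2 over Pfkfb3, -0.60 ± 0.05 for Pgam2 over Pgam1 and -0.52 ± 0.04 for Pfkm over Pfkl. It was -0.35 ± 0.14 for Slc2a4 over Slc2a1, -0.28 ± 0.04 for Eno3 over Eno1, -0.23 ± 0.02 for Ldhb over Ldha and -0.22 ± 0.04 for Pfkm over Pfkp. The 3 higher pairs were Slc2a4 over Slc2a12 at 0.41 ± 0.11, Hk2 over Hk1 at 0.30 ± 0.04 and Ldhb over Ldhd at 0.30 ± 0.15. Pairs of the same step share a gene and are not separate observations. Markers of other cells also differed between the libraries, in both directions. In scaled counts, over markers with a mean count of 50 or more, the median log2 ratio was 4.97 over 6 of 7 adipocyte markers, 2.00 over 6 of 6 atrial and 1.68 over 3 of 6 Schwann and neuronal markers. It was 0.49 over 5 of 5 fibroblast, 0.42 over 5 of 5 smooth muscle and pericyte, 0.40 over 7 of 8 myeloid and 0.06 over 5 of 5 endothelial markers. It was -0.17 over 7 of 7 cardiomyocyte and -0.23 over 6 of 6 red cell markers. Their summed levels stand above, and their part in the differences between the libraries was not tested.

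Sequence shared with pseudogenes bears on how firmly some levels are known. Words of 31 bases from each member's annotated transcripts were looked up in those of all other genes on the same strand, and genes sharing at least 100 words were listed. Of the 33 members, 12 shared that much with another gene, none of them with another member, and 12 shared no word with any gene. Pgam2 and Eno3 were among those that shared none, while their partners Pgam1 and Eno1 shared 37.1% and 28.4% of their words.

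For Gapdh, the member with the highest TPM, the quantifications gave different counts. Of its words, 27.2% were found in 130 other genes, most of all in the pseudogene Gm7336. The first quantification gave Gapdh 25986 counts in replicate 1 and 23105 in replicate 2. By the other it had 43830 and 38180, which is 1.69 and 1.65 times as many, against medians of 1.06 and 1.07 over all genes with a mean count of at least 50. Gm7336 had 553 and 437.6 counts in the first quantification and 14878 and 14104 in the other. Gapdh and all genes sharing its words together had 28854 and 25526 counts in the first and 62959 and 54873 in the other. The quantifications thus also differed in the sum over these genes, and the cause was not tested. The posterior SD of the Gapdh count in the deposited tables, 106.6 and 108.3, is far smaller than the distance between the quantifications. The level of Gapdh was 3759 and 3321 TPM in the other quantification, so the value from the first quantification holds for 1 way of counting.

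For Eno1 the counts of related genes were large beside its own. Eno1 had 4306 counts in replicate 1 and 3363 in replicate 2, while Eno1b, which shares 1509 of its words, had 2476 and 1603 and the pseudogene Gm4735 had 831.2 and 496.4. Of the reads given to Eno1 and the 5 genes that share its words, the other genes held 43.4% in replicate 1 and 38.4% in replicate 2. The level of Eno1 and the ratio of Eno3 over Eno1 therefore depend on how shared reads were divided. For Pgk1 the share was 5.38% and 3.58%, although 54.7% of its words were found elsewhere, chiefly in the pseudogene Gm5537 with 715.3 and 413.8 counts in the first quantification and 0 in both libraries of the other. For Pgam1, Pkm and Ldhb the related genes held between 1.98% and 2.73% of such reads in the first quantification.

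The quantifications also differed in which transcript of a gene they favoured. Among the 29 members that had a mean count of 50 or more, the most abundant transcript was the same between the libraries in 25 for the first quantification, and the same in all 4 tables in 17. For 6 members the libraries had the same transcript within each quantification but not between them: Hk1, Gapdh, Eno3, Pkm, Ldha and Ldhb.

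In Gapdh, Gapdh-208, a processed transcript of 483 bases, held 72.2% of the gene's TPM in replicate 1 and 71.5% in replicate 2 in the first quantification, and 0 in the other. There the 471-base Gapdh-207 held 43.6% and 42.6%. Ldha was almost all Ldha-202 in the first quantification, at 98.5% and 97.3%, but 57.2% and 60.2% Ldha-201 in the other. Ldhb-201, the full-length Ldhb transcript of 1304 bases, held 78.2% and 76.8% in the first and 34.9% and 35.1% in the other. TPM divides by transcript length. For Ldhb the other quantification gave 1.03 times the counts of the first in both libraries, while its TPM was 1411 and 1443, against 688.1 and 646.

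Other members were steady. Slc2a4-201 held between 84.5% and 90.4% of Slc2a4 in all 4 tables, Tpi1-205 between 89.6% and 96.6% of Tpi1, and Pgam1-201 between 97.7% and 99.5% of Pgam1. Pgam2 and Slc16a1 have 1 annotated transcript each. In Pfkfb3 the libraries differed: Pfkfb3-206 held 45.1% in replicate 1 and 13.6% in replicate 2, from 448.7 and 83.78 counts, and the other quantification gave 42.2% and 14.8%. With 21 annotated transcripts and 352 counts in replicate 2, the division of this gene is poorly determined.

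**Figure D5:**
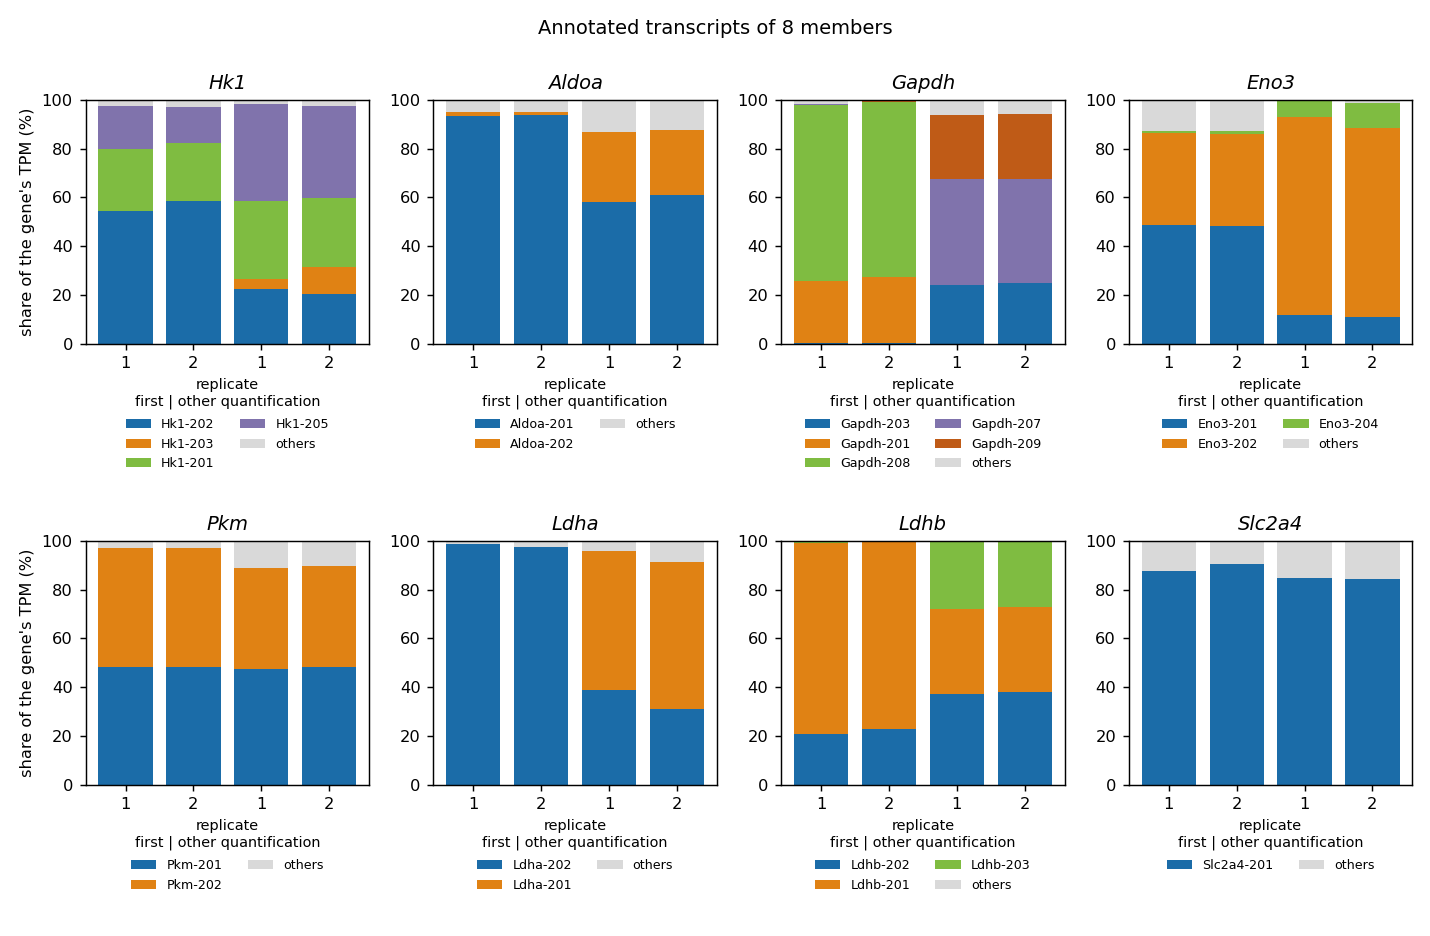
Share of each annotated transcript in the TPM of its gene (%) for 8 members, in replicate 1 and replicate 2 of the first and of the other quantification, with transcripts that are small in all 4 tables in grey. The columns of the libraries look alike within a quantification. Hk1, Aldoa, Gapdh, Eno3, Ldha and Ldhb differ between the quantifications, and Slc2a4 does so little.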

How the data were processed

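Total RNA from 2 hearts was sequenced. Per the deposited notes, the authors used the mm10 build with GENCODE M21, deriving expected counts and TPM from transcriptome alignments (called the first quantification) and estimated counts and TPM directly from reads (the other). Program names and versions, and whether counting used strand, are not given in the sources used here, which leaves genes that overlap on opposite strands uncertain. The deposited gene table also holds the posterior SD of the count. Since the reference follows B6, reads of CAST alleles may have been lost, which was not measured.

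Members and lists were chosen with earlier results of these data known. All 33 members are named. Among other pathway genes those at 1 TPM or more in either library are named, and among genes sharing words those with the highest counts. The limit of 100 shared words and the paralog ratio from counts were added after seeing the data. Rows that name no gene, 26249 of them with 3.89 and 3 counts, and 96 ERCC controls were left out of library sizes.

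Expected counts were rounded and scaled with TMM factors (edgeR 4.0.16, R 4.3.3). DESeq2 1.42.0 gave alternative size factors. Ratios and exact intervals came from Python 3.11.15 with SciPy 1.17.1, and the step was tested on simulated data. Without molecular identifiers, reads need not be independent molecules, so intervals and floors cover counting error only. An exact sign-flip test over 2 libraries cannot go below p = 0.5, so no p-value was computed. Protein identity came from global alignments (Biopython 1.88) of translated GENCODE coding sequences, where RefSeq proteins had been planned.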

Additional observations from a re-analysis of the deposited data

How the results depend on the processing

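The count of 17 pairs over 2-fold in both libraries ranged from 16 to 18 under the alternatives, 18 in the other quantification and 16 with only members of at least 10 counts; without replicate 1 it was 18 and without replicate 2 it was 17. The mean share of TPM held by the members, 0.622%, moved to 1.07% in the other quantification, to 1.16% with mitochondrially encoded, 7SL and 7SK genes and spike-ins left out of the total, and to 0.703% of expected counts; it was 0.569% without replicate 1 and 0.675% without replicate 2. The last alternatives change the total by construction, and for the other quantification the cause was not tested. The number of members at 1 TPM or more was between 21 (threshold of 5 TPM) and 30. The number past 1.5-fold was 3 under every scaling and count filter and 2 in the other quantification, and the members' median log2 ratio lay between 0.07 and 0.18. The median of all genes lay between -0.14 with no count filter and 0.10 with total counts. The M1 share of Pkm was 46.3% in the other quantification, against 50.1%; the cause was not tested. Of 113 alternatives to single pair ratios, none reversed a direction and 39 moved the value by more than the spread between libraries. The alternatives that leave out a replicate lie within that spread by construction and could not count as moved. The share of moved values is thus higher among the remaining alternatives. Low counts limit Hk3, Aldoc, Pfkfb1 and Pklr, which were left out of the main ratios of single members between libraries. The alternatives with a lower or no count filter took in some or all of them. Each also stayed in a paralog pair that was compared between libraries. None of those pair differences passed the limit in counting standard errors given above. No paired analysis was possible because there is 1 group.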

Other observations

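Of 36 further genes of glucose and lactate handling, 21 reached 1 TPM in either library. The highest was Bsg (basigin), the partner that brings monocarboxylate transporters to the membrane, at 484.8 TPM in replicate 1 and 430.2 TPM in replicate 2, far above Slc16a1 itself. Its relative Emb stood at 5.98 and 3.43 TPM, and the transporter Slc16a7 (MCT2) at 8.42 and 5.29 TPM. The mitochondrial pyruvate carrier subunits had similar levels, Mpc1 at 163.6 and 127.6 TPM and Mpc2 at 172.2 and 150.5 TPM. Txnip, an inhibitor of glucose uptake, stood at 258.2 and 309.8 TPM. Bpgm, which makes 2,3-bisphosphoglycerate and is best known from red cells, stood at 31.09 and 25.94 TPM, Hif1a, a regulator of glycolytic genes, at 39.74 and 34.66 TPM, and Eno1b at 49.69 and 30.36 TPM. The pentose phosphate enzymes stood at 23.99 and 16.3 TPM for Pgd and 4.35 and 2.47 TPM for G6pdx.

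Several regulators lay between 10 and 20 TPM. Tbc1d4, which holds back Slc2a4 until insulin acts, stood at 14.5 TPM in replicate 1 and 15.45 TPM in replicate 2, the muscle fructose bisphosphatase Fbp2 at 14.13 and 15.82 TPM, Tigar, which lowers fructose 2,6-bisphosphate, at 16.89 and 13.52 TPM, and Gpd1l at 16.69 and 13.56 TPM. Adpgk stood at 4.71 and 4.25 TPM, and the lowest of the 21 were Slc2a10 at 2.31 and 1.82 TPM, Slc2a9 at 1.18 and 0.64 TPM and Slc2a13 at 1.18 and 0.68 TPM. The other 15 genes, among them Slc2a2 and Fbp1 of liver, stayed under 1 TPM in both libraries, and Slc2a7, Pgk2 and Ldhc had no count.

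The median log2 ratio over the 21 further genes with a mean count of at least 50 was 0.03. Of these 21, 2 were past 1.5-fold between the libraries, against a background of 6.27% of 13211 genes. Both were higher in replicate 1, where the background was 3.14%. These were the enzymes of the glycerol phosphate shuttle, which passes cytosolic NADH to mitochondria. Gpd1 had 8197 and 1894 counts in replicates 1 and 2, a log2 ratio of 1.97 (1.90 to 2.05), and Gpd2 had 1684 and 685 counts, a ratio of 1.16 (1.03 to 1.29). The summed adipocyte markers were 424.8 TPM in replicate 1 and 31.35 TPM in replicate 2, with Ucp1 at 239 and 5.02 TPM, and their part in this difference was not tested.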
